A study of Homo sapiens with 2 samples.

Results

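The 8 genes described here belong to a pair of families tied to calcium-activated chloride currents: CLCA1, CLCA2 and CLCA4 of the CLCA regulators, and ANO1, ANO5, ANO6, ANO8 and ANO10 of the anoctamins. They were taken by gene symbol from 18417 genes measured on the arrays, and each had 1 probe set, 8 of 33297 in all. The set was chosen by the measured difference of CLCA2, the largest of any gene between the arrays, so the differences below are a description and carry no test. The samples were H1299 cells, an established human cell line from a non-small cell lung carcinoma that has no p53 of its own, measured as total RNA in 1 array of cells with p53 and 1 array of cells labelled negative control. The labels do not say how p53 was supplied, for how long, or what the negative control received. With 1 array a group there was no replicate error, and no p-value could be computed. Whole cultures were measured, so fewer expressing cells and less RNA per cell cannot be told apart.

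CLCA proteins were first taken for channels and are now known as secreted or membrane-tethered proteins that cleave themselves and regulate calcium-activated chloride channels. CLCA1 is secreted by goblet cells of airway and gut and holds the ANO1 channel at the cell surface. CLCA2 is anchored in the membrane, is expressed in stratified and glandular epithelia and is a known p53-inducible gene. CLCA4 is expressed in gut and squamous epithelia. Anoctamins (TMEM16 proteins) span the membrane many times. Some, such as ANO1, are calcium-activated chloride channels, and others, such as ANO6, are scramblases that move phospholipids between the leaflets of the membrane.

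The promoter of CLCA2 is shown because this gene alone of the 8 differed by 2-fold or more. The window, at chr1:86423921-86424220 on the plus strand of GRCh38.p14 from RefSeq, runs from 250 bases before the gene start to 50 bases after it. Capitals mark the 20-base stretches closest to the p53 consensus, which is a pair of adjoining 10-base copies of purines, C, A or T at both central positions, G, and pyrimidines. The consensus reads the same on both strands.

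CLCA2: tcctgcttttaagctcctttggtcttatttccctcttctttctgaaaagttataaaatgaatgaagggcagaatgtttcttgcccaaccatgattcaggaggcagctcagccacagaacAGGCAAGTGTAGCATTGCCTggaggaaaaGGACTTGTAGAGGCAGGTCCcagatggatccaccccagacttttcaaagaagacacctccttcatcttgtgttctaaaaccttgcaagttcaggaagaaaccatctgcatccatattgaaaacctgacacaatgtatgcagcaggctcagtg

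Each of these stretches matched the consensus at 17 of 20 bases. The first began 131 bases before the gene start and the second 102 bases before it, and they do not overlap. A match with at most 3 mismatches was present in 1826 of the 35116 promoter windows in the table, 5.20%. The closest stretch in the window of each member that the table holds is given next, with capitals at the bases that match the consensus and, where several stretches tied, the most upstream of them.

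CLCA2: AGGCAAGTgTAGcaTTGCCT
CLCA1: GGGCTccCCCAccCTTaCCC
CLCA4: GAGaAAGaaaAGAaAAGCCT
ANO1: GAGCgAGggCAGcCAAGTTT
ANO5: GGACTTtTCCccACgAGaCC
ANO6: GAGtTTtTCTAtAaAAGCaT
ANO10: AGtaAAGCCaGAAtAAtCCC

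The ANO1 stretch matched at 16 bases and those of CLCA1, CLCA4, ANO5, ANO6 and ANO10 at 15. A second start site of ANO10 had 14. Stretches with at most 4 mismatches were found in 26.0% of all windows and with at most 5 in 70.5%. ANO8 was not in the table. The CLCA2 window held 0 CG dinucleotides, as did 3.96% of windows, against a median of 14. The CLCA1 and CLCA4 windows held 6 and 2, ANO6 2, ANO5 9, ANO1 36, and the 2 starts of ANO10 held 15 and 34. These matches describe letters only, and neither p53 binding nor cytosine modification was measured on these arrays.

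CLCA2 stood apart from every other member. The negative control array gave it a log2 intensity of 4.83 and the p53 array 10.45, which is a difference of 5.62 and a 49.2-fold higher level with p53. Among all probe sets the 25th percentile was 5.97 and the 75th was 9.01, and CLCA2 was below the former in the control and above the latter with p53. Counted from the 25th percentile, the difference was 4.48, or 22.3-fold, so the size of the fold depends on a dim control value while its direction does not. Over all genes the next largest difference was that of RNF144B, a ubiquitin ligase gene, at 12.06 with p53 and 6.64 in the control, or 5.41. Counted from the 25th percentile its difference was still 5.41, above that of CLCA2, which then ranked at 7, so the first rank of CLCA2 rests on its dim control value.

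**Figure D1:**
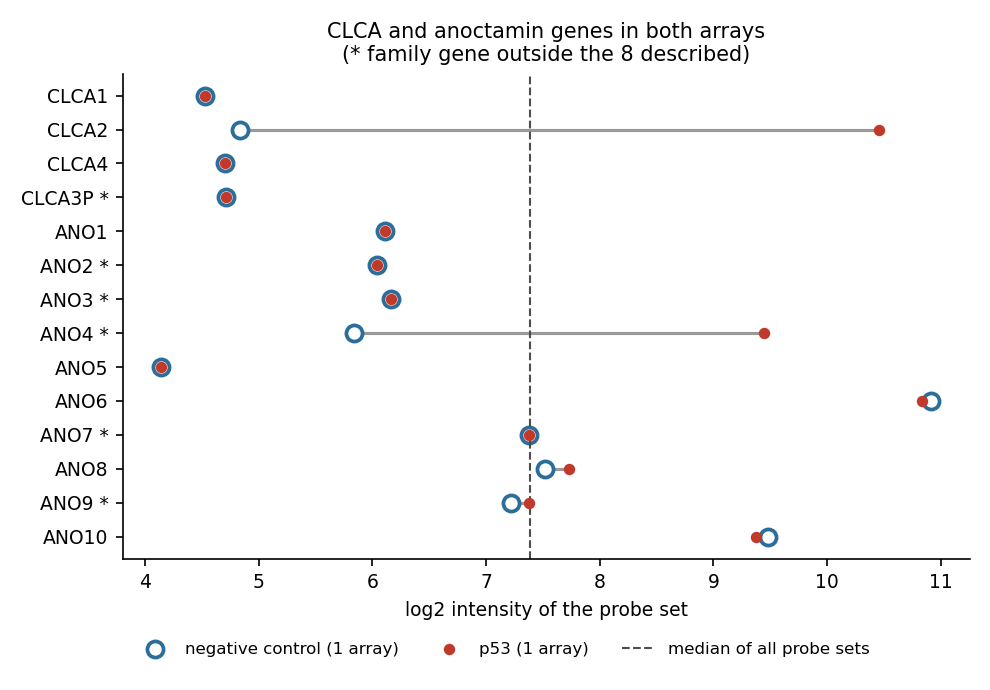
Log2 intensity of each CLCA and anoctamin probe set in the negative control (open circle) and with p53 (filled circle), 1 array each, with the median of all probe sets as a dashed line. CLCA2 crosses the line from 4.83 to 10.45 and ANO4 from 5.83 to 9.45, while the circles of the other genes overlap or nearly so.

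Of the 8 members, 1 was at least 2-fold higher with p53, 0 were lower and 7 were neither. Over all genes, 5.22% were at least 2-fold higher and 3.70% lower by the same rule of size, which is not a test. Since CLCA2 chose the set, its count cannot be read as a result. Only 4 members, CLCA2, ANO6, ANO8 and ANO10, passed a filter that asks for the median of all probe sets, 7.38, in at least 1 array. CLCA2 passed it through the p53 array alone. Of 11436 genes that passed, the same rule called 8.21% higher with p53 and 5.79% lower.

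No measured gene next to CLCA2 on its chromosome showed such a difference. The CLCA genes form a cluster, in the order CLCA2, CLCA1, CLCA4 and the pseudogene CLCA3P. CLCA1 had a log2 intensity of 4.52 in both arrays, CLCA4 4.71 in both, and CLCA3P 4.72 in both. All 3 were below that 25th percentile in each array, so a low level that differed between the conditions could have gone unmeasured. On the other side, ODF2L, a centrosomal protein gene, was at 7.63 with p53 and 8.18 in the control, which gives a difference of -0.55. Among the 3 genes on either side of CLCA2 in the gene table, ODF2L and CLCA1 were the 2 with a probe set here. The next measured gene past CLCA3P, SH3GLB1, which encodes a membrane-curving protein of apoptosis and autophagy, was at 10.15 with p53 and 10.56 in the control.

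ANO1, the calcium-activated chloride channel of secretory epithelia and smooth muscle, was at 6.11 in both arrays, below the filter. ANO5, an anoctamin of skeletal muscle and bone whose loss causes muscular dystrophy, was at 4.15 in both arrays. These values, like those of CLCA1 and CLCA4, were identical to the last deposited digit. The other 3 anoctamins were above the filter in both arrays. ANO6, the scramblase that exposes phosphatidylserine on activated platelets, was at 10.83 with p53 and 10.92 in the control. Its difference of -0.08 was smaller in size than that of 73.2% of the genes that passed the filter. ANO10, whose loss causes a recessive cerebellar ataxia, was at 9.37 with p53 and 9.48 in the control, which gives a difference of -0.10. ANO8, which tethers the endoplasmic reticulum to the plasma membrane, was at 7.73 with p53 and 7.52 in the control, which gives a difference of 0.21. The differences of these 3 genes lay within 0.43, the robust standard deviation, scaled from the median absolute deviation, over all genes that passed the filter. Since p53-dependent differences are part of that spread, it is no measure of replicate error.

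**Figure D2:**
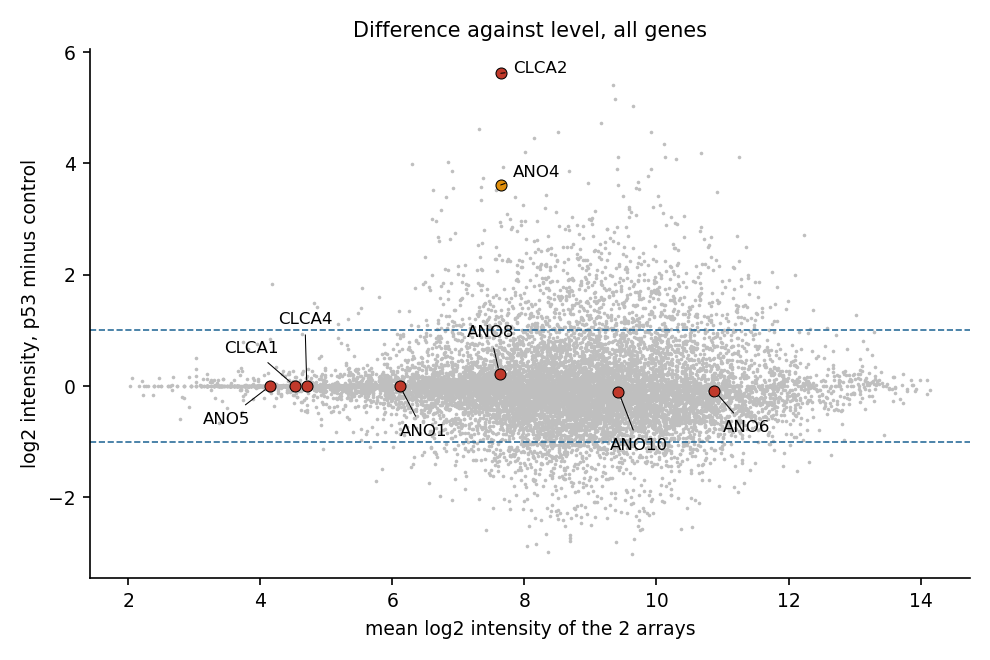
Difference in log2 intensity, p53 minus control, against the mean of the 2 arrays for 18417 genes (grey), with the 8 members in red, ANO4 in orange and 2-fold differences as dashed lines. CLCA2 is the highest point at 5.62, ANO4 lies at 3.61, and the other 7 members lie between -0.10 and 0.21.

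In total 4 of the 8 members, CLCA1, CLCA4, ANO1 and ANO5, had identical values in the p53 and control arrays. Over all genes this share was 35.3%. It was 69.2% of the genes below the filter and 14.6% of those above it. When genes were put into 10 bins of equal size by mean intensity, the dimmest bin held CLCA1, CLCA4 and ANO5, and 76.4% of its genes were equal. The next bin held ANO1, with 71.6% equal, against 3.85% in the brightest bin with ANO6. The values were also shared between unrelated probe sets. The ANO5 value occurred in 53 probe sets of the p53 array and 49 of the control array. The ANO1 value occurred in 21 and 28, among them the bestrophin gene BEST2 in both arrays. Of the probe sets equal in both arrays, 74.9% shared their value with another probe set of the p53 array, against 23.8% of the unequal ones. No source used here names the step that made these values equal. A difference of 0.00 therefore gives no measure of how alike the transcripts were in the p53 and control cells. This holds for these 4 members and for every other gene given the same value in both arrays.

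**Figure D3:**
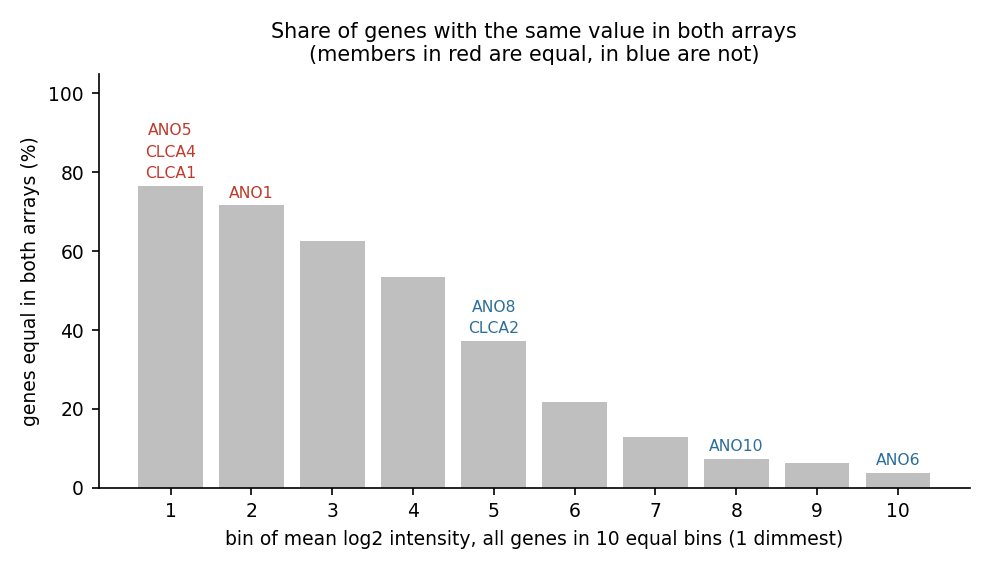
Share of genes with exactly the same value in both arrays, in percent, in 10 bins of mean log2 intensity from dimmest (1) to brightest (10), with the members named above the bin they fall in. The share falls from 76.4% to 3.85%, and the 4 equal members (red) lie in the 2 dimmest bins.

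Of the 6 other CLCA and anoctamin genes, ANO4 was 12.2-fold higher with p53. Its log2 intensity was 9.45 with p53 and 5.83 in the control, which gives a difference of 3.61, and it ranked at 29 among the genes that passed the filter. From the 25th percentile it was 11.1-fold higher. ANO4 was the 1 gene of these 6 to pass the filter, and it did so through the p53 array alone, as CLCA2 had. ANO2, the chloride channel of olfactory neurons, was at 6.04 in both arrays, ANO3 at 6.16 and ANO7, a prostate anoctamin, at 7.37. ANO9 was at 7.37 with p53 and 7.22 in the control. With CLCA2, which chose the set, 2 of the 14 genes of both families were at least 2-fold higher, beside 5.22% of all genes. Both are dim in the control, so a lower level with p53 could hardly have been measured in them.

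The relatives of the anoctamins in the same superfamily are the TMC genes and the TMEM63 genes, the latter encoding mechanosensitive ion channels. Of 11 measured, 2 were at least 2-fold higher and 0 lower. TMEM63B was 5.79-fold higher, at 12.07 with p53 and 9.53 in the control. TMEM63A was 2.89-fold higher, at 10.15 against 8.62. Both passed the filter in both arrays. TMC7 had a difference of -0.66, TMC5 one of 0.17, and 7 of the 11 were equal in both arrays. The median of the list was 0.00, which the equal values fix, and 0.85 over the 4 unequal genes. Over all genes the median was 0.00 as well.

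Other chloride channel families were mixed. Of 7 bestrophin and tweety homologues, TTYH2 was 3.73-fold higher, at 9.69 with p53 and 7.79 in the control, and TTYH3 2.94-fold higher, at 11.12 against 9.56. The 4 bestrophin genes, which encode another family of calcium-activated chloride channels, were below the filter. Of 8 measured genes of the CLC channels and exchangers, OSTM1, the subunit that stabilises the lysosomal exchanger CLCN7, was 2.04-fold higher, at 9.36 against 8.33. It fell short of 2-fold, at 0.96 on the log2 scale, with an offset of 32 before the logarithm. CLCN7 was at 8.52 in both arrays, identical to the last deposited digit, which gives no measure of likeness. CLCN5 had a difference of 0.50, CLCN6 one of -0.43 and CLCN3 one of -0.32.

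Lower values occurred among the volume-regulated chloride channel genes. LRRC8C was 2.33-fold lower with p53, at 7.99 against 9.21, and LRRC8D was 2.07-fold lower, at 9.63 against 10.68. With a lowess trend on intensity removed, LRRC8D stood at -0.99, less than 2-fold. LRRC8A, the subunit that every such channel needs, was at 9.66 and 9.83, and LRRC8B was at 9.15 in both. PACC1, the proton-activated chloride channel gene, had a difference of -0.63. CFTR, the chloride channel of cystic fibrosis, was below the filter at 4.88 and 4.80. Of the 8 genes in this group 2 were lower and 0 higher, with a median of -0.10.

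The chloride intracellular channel proteins CLIC1 and CLIC4 had differences of -0.37 and -0.58, and the other 4 measured were below the filter. CLIC2 was below it in both arrays, at 5.57 with p53 and 4.07 in the control, or 2.82-fold higher. Both CLIC2 values lay below the 25th percentile of 5.97, and counted from there the difference was 0.00. Of 18 measured chloride cotransporters and SLC26 anion exchangers, 2 were at least 2-fold higher and 0 lower. SLC12A7 and SLC12A4, which encode potassium-chloride cotransporters that export chloride, were 3.75-fold and 2.53-fold higher. SLC12A7 was at 9.68 with p53 and 7.77 in the control, and SLC12A4 at 9.80 and 8.46. SLC12A2, the sodium-potassium-chloride cotransporter that imports chloride, had a difference of -0.49, and the exchanger gene SLC26A6 one of -0.40.

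Among 19 measured scramblases and flippases, genes that share the phospholipid transport role of ANO6, ATP8B1, a flippase of epithelial membranes, was 4.25-fold higher, at 9.98 with p53 and 7.89 in the control. PLSCR1, an interferon-inducible membrane protein named as a scramblase, was 2.33-fold lower, at 7.68 against 8.90. XKR8, the scramblase that caspases activate, had a difference of 0.33, and TMEM30A, the partner subunit of most flippases, one of 0.12. ATP11B and ATP10D, both flippase genes, had differences of 0.74 and 0.60, and ATP11A, another flippase gene, one of -0.59. In this list 1 gene was at least 2-fold higher, 1 lower and 17 neither.

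**Figure D4:**
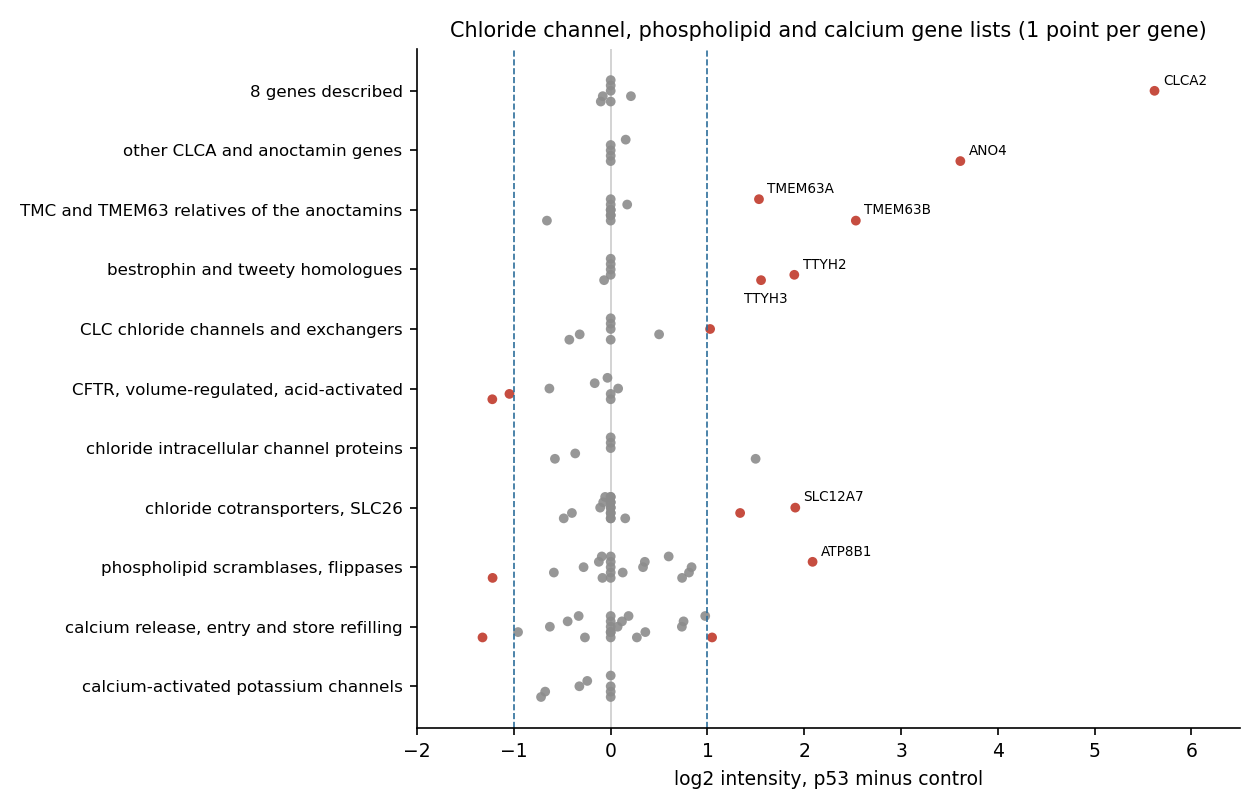
Difference in log2 intensity, p53 minus control, for each measured gene of the 8 members and of 10 related lists, with red for genes that passed the filter and differed at least 2-fold (dashed lines). CLCA2 at 5.62 and ANO4 at 3.61 lie farthest right, 4 genes of the related lists lie at or left of -1, and many genes sit at 0.

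Over the 10 lists of channels, transporters and calcium genes, 112 of 124 listed genes were measured and 58 passed the filter. Of these 58, 10 were called higher with p53 (17.2%) and 4 lower (6.90%), beside 8.21% and 5.79% of all genes that passed. The 10 include ANO4, which passed through the p53 array alone. Without the filter, 11 of the 112 were higher and 4 lower, beside 5.22% and 3.70% of all genes. The lists were chosen with earlier results of these data known, so these shares are a description and no test. The medians of the bestrophin and tweety, CLC, CLIC, cotransporter and phospholipid lists were each 0.00, and the median over all 112 genes was 0.00, with 49 equal in both arrays. Each of these medians fell on equal values, so it gives no measure of likeness. Over the unequal genes alone, the bestrophin and tweety list had a median of 1.55 (3 genes) and the CLC list 0.09 (4). The CLIC list had -0.37 (3), the cotransporter list -0.07 (8) and the phospholipid list 0.23 (14). Over the unequal genes of all 10 lists the median was -0.03.

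Markers of the tissues in which the members are best known were set beside these values. Of 9 measured goblet and secretory airway markers, 2 were above the filter in the control, FCGBP and SCGB3A1, and their list ranged from 4.84 to 8.53 with p53 and from 4.84 to 8.02 in the control. SCGB1A1, a secretoglobin gene of club cells, was 2.71-fold higher, at 8.53 with p53 and 7.09 in the control, and FCGBP had a difference of 0.46. The list had 1 gene at least 2-fold higher, 0 lower and 5 equal. AGR2, SPDEF and MUC5B, markers of goblet and other secretory cells, were equal in both arrays and below the filter at 4.84, 7.14 and 7.35. The goblet cell mucin gene MUC5AC was on the list but not among the measured genes. Of 11 squamous markers, 3 were above the filter in the control, and SFN, a 14-3-3 gene that p53 is also known to induce, was the 1 that was at least 2-fold higher, at 10.09 with p53 and 7.89 in the control. The keratin genes KRT13 and KRT14 were also above the filter, equal in both arrays at 7.49 and 7.54. The basal and squamous genes KRT5, KRT4, IVL and DSC3 were below the filter. KRT5, KRT4 and DSC3 were equal in both arrays, which gives no measure of likeness, and IVL had a difference of -0.01. TP63 was on the list but not among the measured genes. DSG3, a desmosomal cadherin gene, was also below it, at 6.95 with p53 and 6.40 in the control, or 1.46-fold higher. In this list 8 of the 11 genes were equal, and the median over the 3 unequal ones was 0.54. Whether airway or squamous markers bear on the CLCA2 value was not tested. Of 10 striated muscle markers, 5 were above the filter in the control, DES, ACTA1, TNNT1, TNNT3 and MYOG. None of the 10 differed by 2-fold, and MYH1, MYH2 and CKM were equal in both arrays and below the filter. In this list 6 of the 10 genes were equal, DES and MYOG among them, and these equal values give no measure of likeness. Of 8 markers of smooth muscle and interstitial cells of Cajal, 1 was at least 2-fold higher and 1 lower. ACTA2, an actin gene of contractile cells, was 9.52-fold higher, at 11.68 with p53 and 8.43 in the control, and TAGLN, an actin-binding protein gene, had a difference of 0.88. ETV1, a transcription factor of interstitial cells of Cajal, was 2.33-fold lower, at 7.92 against 9.15, and CNN1 had a difference of 0.36. KIT, a marker of those interstitial cells, and MYH11, a marker of smooth muscle, were below the filter with the p53 and control values equal, at 5.24 and 6.53. Whether these markers bear on the anoctamin values was not tested.

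The label of the p53 array was checked with known p53 targets, since the gene of p53 itself is not analysed here. CDKN1A, which encodes p21, was 11.2-fold and MDM2, the ubiquitin ligase gene, 6.55-fold higher in the array labelled p53.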

How the data were processed

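Per the labels, RNA isolated with Trizol was biotin-labelled for Affymetrix arrays, 1 for each condition. The authors deposited log2 intensities, 1 for each probe set in each array, summarised by RMA per the submitters' processing notes. That the scale is log2 was judged from the range of the values. No source used here gives the software version, the genome build or how probe sets were defined. After sorting, the columns differed by at most 0.19, so a shift in total RNA per cell could not be read.

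Probe sets with 1 gene symbol in GEO's platform annotation (19460 of 33297) were used, with symbols updated through a RefSeq gene table. For a gene with several probe sets, the brightest by mean was used. Differences are p53 minus control, and the size rule was 2-fold. An array gives no counts, so the number of arrays limits the precision. The members and gene lists were chosen with earlier results of these data known. Named genes were all members, all list genes past the filter and the size rule, up to 4 further genes per list, and the neighbours of CLCA2. Others, such as marker genes and genes below the filter, were named after their values were seen. The scripts were tested on simulated data. The 11 alternatives were 3 other filters, 2 other thresholds and 6 other scalings or probe set rules. Computations ran in Python 3.11.15 with numpy 2.4.6, pandas 2.3.3 and statsmodels 0.14.6, and plots in matplotlib 3.10.9.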

Additional observations from a re-analysis of the deposited data

How the results depend on the processing

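The differences of the 8 members were recomputed under 6 alternatives. CLCA2 lay between 4.48 and 5.63 and moved by more than 0.43 with an offset of 32 (4.57) and with a floor at the 25th percentile (4.48). The other 7 members moved by less than 0.43 under each, and 1 member was higher and 0 lower at all 11 settings of filter, threshold and scaling. At 1.5-fold, 1642 genes above the filter were higher and 1777 lower, and 15 and 11 of the list genes. At 3-fold the counts were 450 and 175, and 5 and 0 of the list genes. Over the single lists, 24 of 308 recomputed counts and 5 of 98 medians moved, all 5 medians when genes equal in both arrays were left out, an alternative chosen after seeing the data. No paired analysis was possible because each condition has 1 array.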

Other observations

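Among genes of calcium release, entry and store refilling, which set the signal that opens calcium-activated channels, STIM1 was higher and ATP2B1 lower with p53. STIM1, the calcium sensor of the endoplasmic reticulum, was 2.07-fold higher, at 9.06 against 8.02, but 0.96 on the log2 scale with an offset of 32. ATP2B1, a calcium pump of the plasma membrane, was 2.50-fold lower, at 8.97 against 10.29. STIM2 had a difference of -0.63. The store-operated channel genes ORAI1, ORAI2 and ORAI3 had differences of 0.36, -0.96 and 0.75. ESYT2 and ESYT1, which tether the endoplasmic reticulum to the plasma membrane, were at 0.98 and 0.74, and ESYT2 reached 1.02 with the lowess trend removed. Of 21 measured genes of this list 1 was at least 2-fold higher, 1 lower and 19 neither, with a median of 0.00. Over the 15 genes of the list with unequal values the median was 0.12.

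Of 8 measured calcium-activated potassium channel genes, none differed by 2-fold. KCNMB4, KCNN4 and KCNMA1 had differences of -0.72, -0.68 and -0.24. KCNMB3 had 4 probe sets, with differences from -0.60 to -0.10.

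Farther from CLCA2 on its chromosome, in a set of neighbours chosen after their values were seen, ZNHIT6 was 2.58-fold lower and HS2ST1, a heparan sulphate sulfotransferase gene, 2.29-fold lower with p53, while COL24A1 was at 6.06 in both arrays.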
